A study of Mus musculus with 6 samples.

Results

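Genes of cholesterol and fatty acid synthesis were followed in endothelial cells cultured from mouse brain with and without the transcription factors Erg and Fli1. The set was a list of 31 genes taken by symbol from the deposited table of 52636 Ensembl genes, and it held enzymes of sterol and fatty acid synthesis, sterol transport proteins and the regulators of these pathways. The rule for the list used no measured value, but the list was chosen with earlier results of these data known. All 31 genes were found in the table, and 31 of 31 passed the filter on low counts, which left 13901 genes to test. The 6 RNA-seq libraries of polyadenylated RNA formed 2 groups, 3 of wild-type control cells and 3 of cells deleted for both Erg and Fli1 (called knockout below). The controls had received 4-OHT (4-hydroxytamoxifen, the agent given to induce the deletion) just as the knockouts had. Cells of both groups were then sorted alive as CD45-negative, CD31-positive and VE-cadherin-positive. The sources used here do not give the driver of the inducible deletion, the deleted exons, the age and strain of the mice, or whether libraries share an animal or a culture. The p-values below therefore reflect how far these libraries spread, which may be partly technical.

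Cells build cholesterol from acetyl-CoA through mevalonate, squalene and lanosterol, and mevalonate also supplies isoprenoids for dolichol and for the lipid anchors of proteins. The genes of this route are switched on together by SREBP-2 (Srebf2), and those of fatty acid synthesis by SREBP-1 (Srebf1). Both factors lie in the endoplasmic reticulum as precursors bound to the sterol sensor Scap, where the Insig proteins hold them while sterol is plentiful. When sterol falls, Scap escorts them to the Golgi for cleavage and the released part enters the nucleus. The brain makes most of its own cholesterol, since the endothelium of the blood-brain barrier keeps plasma lipoproteins out. Erg and Fli1 belong to the ETS family of transcription factors and are known for keeping endothelial genes active.

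Gene counts per library ran from 17274639 to 19410458. CPM, the level used below, is the count of a gene scaled to a common library size. Erg, a deleted gene, had 656, 223 and 609.6 CPM in controls 1, 2 and 3 and 70.2, 88.3 and 109 CPM in knockouts 1, 2 and 3 (log2 fold change -2.48, SE 0.44, edgeR BH-adjusted p = 0.0137, that is adjusted by the Benjamini-Hochberg method). Fli1 had 82.9, 64.2 and 92.1 CPM in the controls and 57.0, 68.5 and 66.7 CPM in the knockouts (log2 fold change -0.32, edgeR BH-adjusted p = 0.181), and -0.48 with control 2 left out (edgeR BH-adjusted p = 0.00346). Counts over a whole gene include transcripts that lack only the deleted exons, so the level of Fli1 is a weak check of its deletion. Control 2 stood apart from controls 1 and 3: chi-square over its degrees of freedom was 190 and 173 against them, and 5.80 between those 2. The 10 endothelial markers, led by Cdh5, summed to 15126 and 15213 CPM in controls 1 and 3, to 6340 in control 2 and to 2448 to 3229 in the knockouts. The 10 fibroblast markers, led over all libraries by Col1a1, summed to 13036 CPM in control 2, to 545 and 1243 in controls 1 and 3 and to 2193 to 3355 in the knockouts. Most of the knockout sum was Dcn, at 1343 to 2110 CPM against 3.95, 317 and 6.96 in controls 1, 2 and 3. Without Dcn, a sum chosen after its values were seen, controls 1 and 3 had 541 and 1237 CPM and the knockouts 849.8 to 1246. The 10 pericyte and smooth muscle markers, led by Acta2, summed to 4091 CPM in control 2, to 470 and 581 in controls 1 and 3 and to 770 to 1564 in the knockouts. By Xist and Y-linked transcripts, control 2 and knockouts 2 and 3 were female and controls 1 and 3 and knockout 1 male. Leukocyte markers summed to at most 11.5 CPM in the 5 libraries other than control 2, which had 162, nearly all of it Tmem119, and C1qa, C1qb and C1qc were at 0 in all 6. The astrocyte list, led by Gja1, a gap junction gene that endothelial cells also express, summed to 113 to 314 CPM in controls and 60.3 to 79.4 in knockouts, with Slc7a10 at 0. The oligodendrocyte list, led by Cnp, summed to 43.8 to 76.1 and 25.2 to 29.9 CPM, with Mobp and Olig1 at 0, and the neuron list, led by Tubb3, to 26.9 to 99.9 and 56.4 to 82.7 CPM. The choroid plexus and ependymal list summed to 2.89 to 8.22 CPM in controls and 48.2 to 51.1 in knockouts, of which 38.6 to 39.9 were Cldn1, and Ttr was at 0. In bulk RNA, fewer cells of a type and less RNA per cell cannot be told apart. The part of these differences in the lipid gene results was not tested. Counts of calls are given with all 6 libraries and without control 2.

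**Figure D1:**
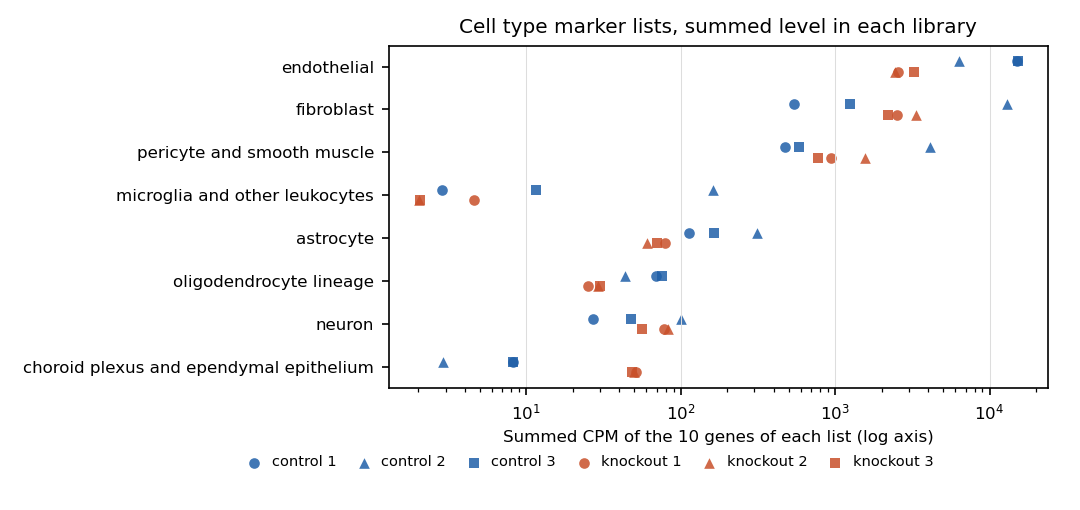
Summed CPM of the marker genes of each cell type (log axis, CPM) in each of the 6 libraries, with controls 1 to 3 in blue and knockouts 1 to 3 in red. Control 2 lies between controls 1 and 3 and the knockouts for endothelial markers (6340 CPM) and above all other libraries for fibroblast markers (13036 CPM).

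Few of the 31 genes changed with all 6 libraries in the fit. Insig2, which retains SREBP precursors, rose in the knockout, and Dhcr7, the last reductase of cholesterol synthesis, and Acaca, the acetyl-CoA carboxylase of fatty acid synthesis, fell. The other 28 did not pass the test (edgeR quasi-likelihood test, adjusted p under 0.05). These 3 calls were 9.68% of the 31 genes, whereas 24.7% of all genes tested were called. By direction, 1 of 31 was higher against 13.1% of all genes, and 2 of 31 were lower against 11.7%. At an unadjusted p under 0.05 there were 7 of the 31, beside 5425 of the 13901 genes tested. The median log2 fold change of the 31 genes was -0.12, against 0.00 for all genes tested, and 24 of the 31 lay within 0.5 on the log2 scale in either direction. With library size as the only scaling the split was 2 higher and 1 lower, and with upper-quartile scaling it was 1 and 1.

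Without control 2 the calls numbered 14 of 31 (45.2%), of which 8 were higher and 6 lower. That fit sets 2 male controls against 1 male and 2 female knockouts, and the part of sex in these 14 calls was not tested. Of all genes, 50.3% were then called, 25.5% as higher and 24.8% as lower, so the share of the 31 genes stayed below that of all genes in both fits. The 3 genes called with all libraries were among the 14. The higher genes were Acat2, Lss, Cyp51, Srebf2, Scap, Insig2, Npc1 and Npc2, and the lower ones were Dhcr7, Insig1, Stard4, Acly, Acaca and Fasn. The median log2 fold change was -0.06 without control 2 and the values ran from -1.08 to 1.53. Positive log2 fold changes numbered 10 of 31 with all libraries, beside 6997 of the 13901 genes tested. Without control 2 they numbered 12 of 31, beside 7046 of 14178. In the levels of all 6 libraries, the 3 controls and the 3 knockouts did not overlap in 8 genes. Acat2, Mvk, Srebf2 and Insig2 were higher in every knockout than in every control (12.9% of the 31, against 25.0% of all genes tested), and Idi1, Dhcr7, Acaca and Fasn were lower (12.9%, against 21.3%). Without control 2 the groups did not overlap in 9 higher genes (29.0%, against 37.6% of all genes tested) and 8 lower ones (25.8%, against 32.3%). With all libraries, an exact two-sided permutation test on any 1 of the first 8 gives p = 0.1, the smallest that 3 libraries against 3 can give.

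**Figure D2:**
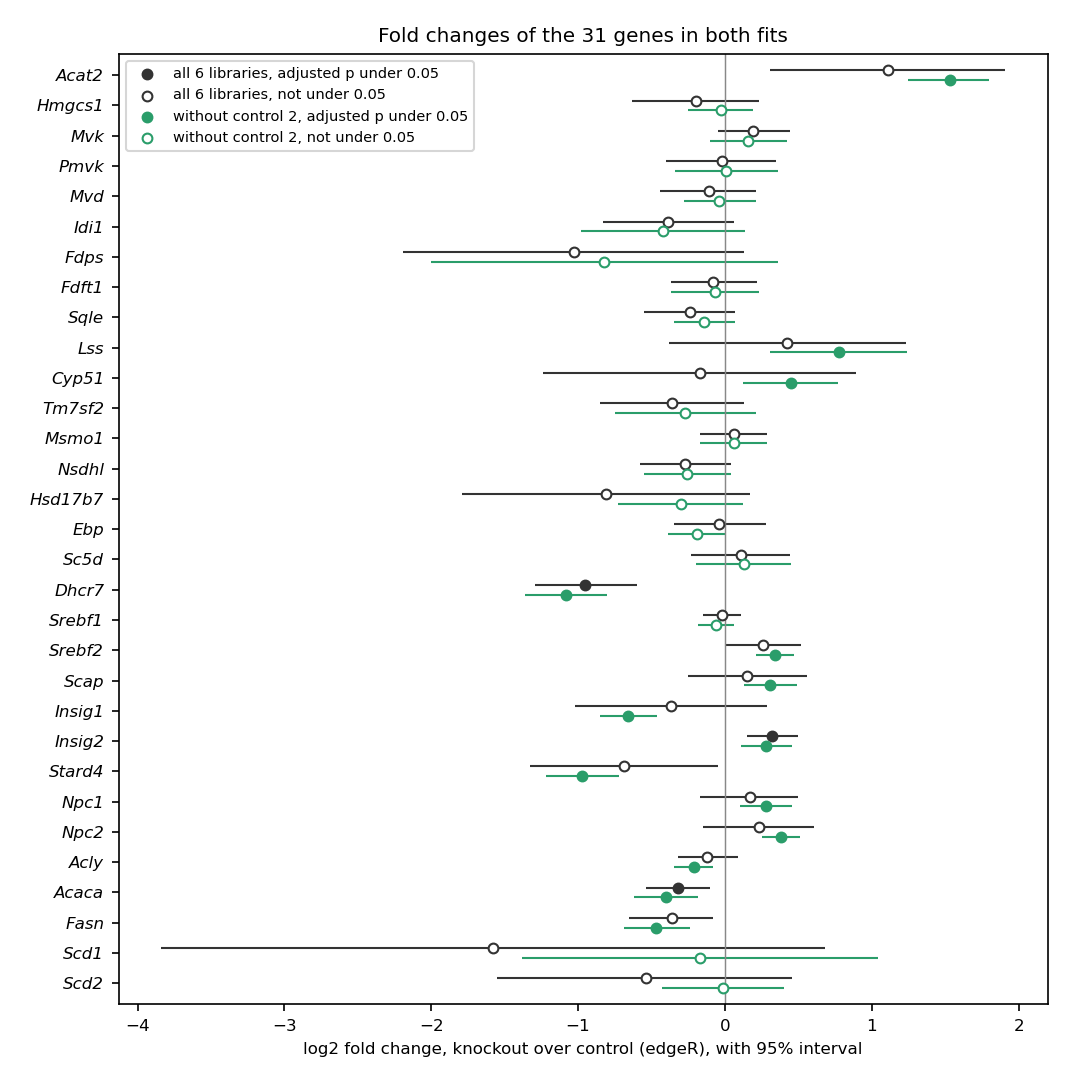
Log2 fold change (knockout over control, edgeR) of each of the 31 genes with its 95% interval, in black with all 6 libraries and in green without control 2. Filled points passed the adjusted p threshold, which were 3 genes with all libraries and 14 without control 2, and the intervals of Scd1, Fdps, Cyp51 and Scd2 are the widest with all libraries.

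**Figure D3:**
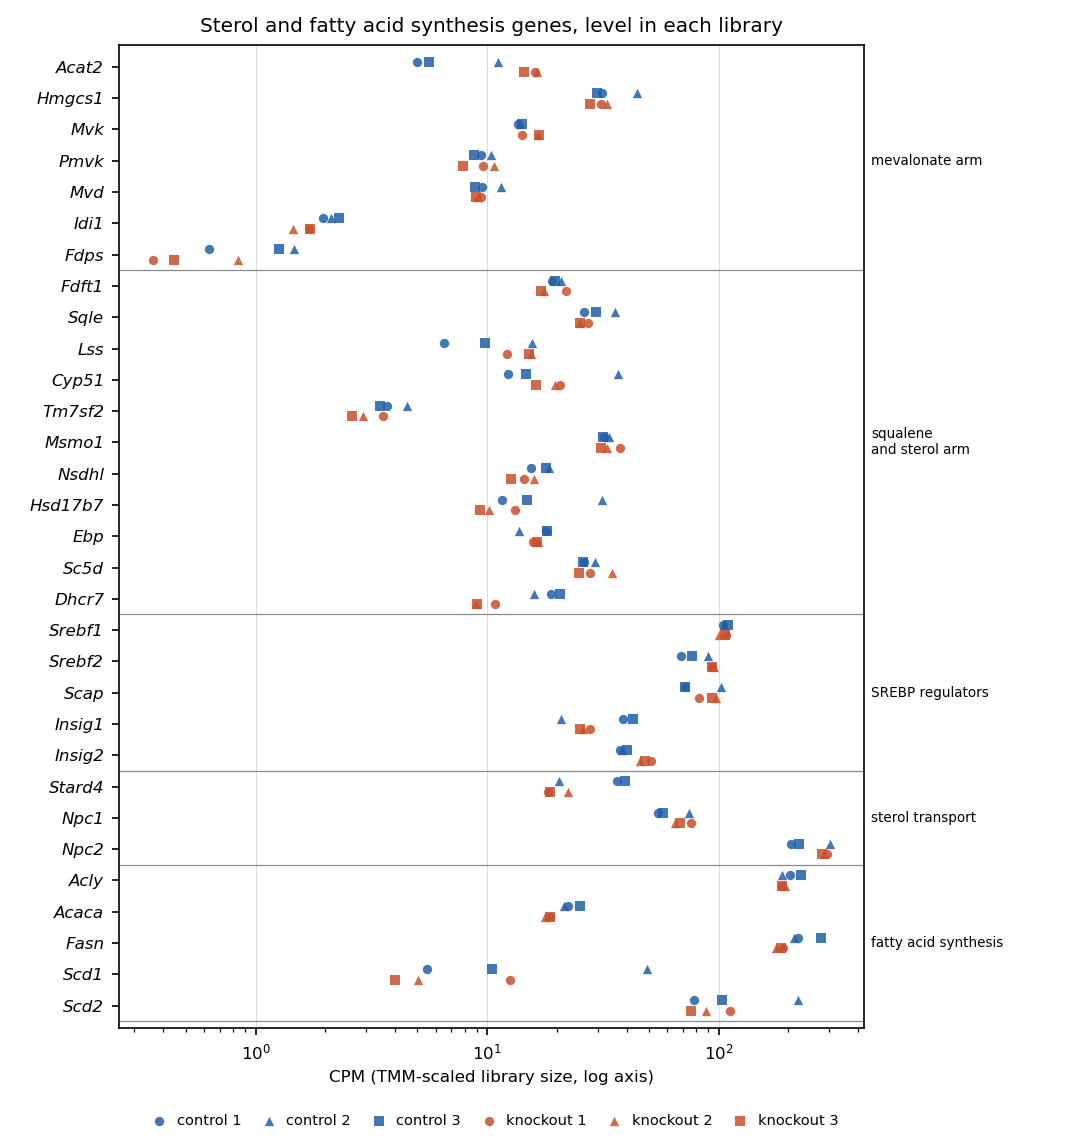
CPM of each of the 31 genes (log axis) in controls 1 to 3 (blue) and knockouts 1 to 3 (red), ordered by role. Dhcr7 shows 3 knockouts below 3 controls, while for Scd1 and Cyp51 control 2 lies above all other libraries.

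Because the deleted factors bind ETS sites and the pathway is driven through sterol regulatory elements, the promoters were searched for the letters of both. RefSeq windows of GRCm38.p6 with the 250 bases before a gene start were at hand for 24 of the 31 genes. The ETS letters CCGGAAG, on either strand, were in 4 of these 24 genes (16.7%), namely Dhcr7, Hmgcs1, Insig2 and Npc2, beside 15.5% of the 10309 tested genes with a window. The sterol regulatory element letters TCACNCCAC were in 1 of 24 (4.17%, Hmgcs1), beside 1.29% of tested genes. The letters of 2 kinds of factor that act beside SREBP were common. CCAAT, bound by NF-Y, was in 20 genes (83.3%, beside 40.5%), and GGGCGG, bound by Sp1 and KLF factors, in 21 (87.5%, beside 64.0%). The E-box CACGTG was in 5 (20.8%, beside 9.83%). A match is a description of letters and not a binding site. The windows below are those of Hmgcs1, the textbook sterol-driven promoter of the list, and of Dhcr7 and Insig2, the 2 called genes that hold the ETS letters. Capitals mark TCACCCCAC, 137 bases before the start of Hmgcs1, and the ETS letters in either orientation, 87 bases before the start of Hmgcs1, 223 before that of Dhcr7 and 223 and 168 before that of Insig2. These distances are from the RefSeq start. For Hmgcs1 the window ends at 119690350, upstream of the GENCODE start at 119690379. RefSeq gives 3 starts each for Dhcr7 and Insig2, and the ETS letters were in 1 of the 3 windows of either gene. The Insig2 window shown lies inside the GENCODE span of the gene, and the window at its outermost start (chr1:121332590-121332839) had no ETS match. In Hmgcs1 the ETS letters overlap 1 match of GGGCGG on the other strand.
Hmgcs1, GRCm38.p6 chr13:119690101-119690350, plus strand: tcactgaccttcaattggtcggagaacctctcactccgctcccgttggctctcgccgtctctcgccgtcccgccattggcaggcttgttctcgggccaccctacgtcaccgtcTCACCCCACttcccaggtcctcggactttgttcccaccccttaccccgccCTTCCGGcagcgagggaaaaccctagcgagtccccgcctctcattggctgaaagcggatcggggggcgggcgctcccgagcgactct
Dhcr7, GRCm38.p6 chr7:143822917-143823166, plus strand: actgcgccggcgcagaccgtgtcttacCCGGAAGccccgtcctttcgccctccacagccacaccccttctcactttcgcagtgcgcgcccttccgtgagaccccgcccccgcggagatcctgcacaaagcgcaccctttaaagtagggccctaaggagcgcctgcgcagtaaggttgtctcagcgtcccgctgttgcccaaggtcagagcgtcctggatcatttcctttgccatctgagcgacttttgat
Insig2, GRCm38.p6 chr1:121327679-121327928, minus strand: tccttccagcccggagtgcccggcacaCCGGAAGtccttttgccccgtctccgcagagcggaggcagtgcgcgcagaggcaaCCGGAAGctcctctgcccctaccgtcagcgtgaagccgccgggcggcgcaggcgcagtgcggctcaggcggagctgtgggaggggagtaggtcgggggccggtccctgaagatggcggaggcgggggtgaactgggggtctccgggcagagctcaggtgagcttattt
Of these 3 genes, Dhcr7 fell, Insig2 rose and Hmgcs1 did not pass the test, and Npc2 was called as higher without control 2 only.

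In the mevalonate arm, which runs from acetyl-CoA to farnesyl diphosphate, none of the 7 enzymes passed the test with all libraries in edgeR. At an unadjusted p under 0.05 there was 1 of 7, beside 5425 of the 13901 genes tested. DESeq2 and limma voom each called 1, in both tools Acat2. Acat2 (ENSMUSG00000023832; GRCm38 chromosome 17, 12942890 to 12960747, minus strand) encodes the cytosolic thiolase that joins acetyl-CoA units. It had 5.01, 11.2 and 5.59 CPM in controls 1, 2 and 3 and 16.1, 16.4 and 14.5 CPM in knockouts 1, 2 and 3. Every knockout lay above every control, and control 2 lay midway between the other controls and the knockouts. Its log2 fold change was 1.11 (SE 0.32, edgeR BH-adjusted p = 0.0566) with all libraries and 1.53 (SE 0.12, edgeR BH-adjusted p = 6.413e-05) without control 2. Of its 50-base transcript sequences, 39.1% occur also in transcripts of Acat3 or Tcp1, so that part of its counts depends on how shared reads were assigned.

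The 6 enzymes after Acat2 passed the test in neither fit. Hmgcs1, the HMG-CoA synthase (ENSMUSG00000093930; chromosome 13, 119690379 to 119708260, plus strand), had 31.3, 44.5 and 29.8 CPM in controls and 31.04, 33.0 and 27.9 CPM in knockouts. Control 2 was the highest library and the other controls lay among the knockouts. The log2 fold change was -0.20 (95% interval -0.63 to 0.23) with all libraries and -0.03 (-0.25 to 0.19) without control 2. The kinases Mvk and Pmvk and the decarboxylase Mvd, which turn mevalonate into isopentenyl diphosphate, had log2 fold changes of 0.19, -0.02 and -0.11. Mvk had 13.6, 13.9 and 14.1 CPM in controls and 14.2, 16.6 and 16.8 CPM in knockouts, so its groups did not overlap although the test was not passed (edgeR BH-adjusted p = 0.207). Idi1, the isopentenyl diphosphate isomerase, had 1.95, 2.12 and 2.30 CPM in controls and 1.70, 1.45 and 1.73 CPM in knockouts, again without overlap (log2 fold change -0.39, edgeR BH-adjusted p = 0.176). Fdps, the farnesyl diphosphate synthase, had 0.632 to 1.47 CPM in controls and 0.360 to 0.837 CPM in knockouts (log2 fold change -1.03, edgeR BH-adjusted p = 0.166). These last 2 genes are uncertain. Idi1 shares 25.3% of its 50-base sequences with other genes, and Fdps shares 26.2%, mostly with Gm43738, whose exons cover 26.7% of its exonic bases on the same strand, and with pseudogenes.

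The squalene and sterol arm, which closes squalene into lanosterol and trims it to cholesterol, held 11 genes, of which Dhcr7 passed the test with all libraries. Dhcr7 (ENSMUSG00000058454; GRCm38 chromosome 7, 143823145 to 143848410, plus strand) encodes the reductase that converts 7-dehydrocholesterol to cholesterol. It had 18.9, 16.01 and 20.7 CPM in controls 1, 2 and 3 and 10.8, 8.93 and 9.08 CPM in knockouts 1, 2 and 3. All 3 knockouts lay below all 3 controls, with means of 18.5 ± 2.37 CPM (SD, n = 3) in controls and 9.60 ± 1.04 CPM (SD, n = 3) in knockouts. The log2 fold change was -0.95 (SE 0.14, 95% interval -1.29 to -0.60, edgeR BH-adjusted p = 0.00799). Without control 2 it was -1.08 (SE 0.12, edgeR BH-adjusted p = 3.371e-04), and the call was kept when any 1 of the 6 libraries was left out (highest edgeR BH-adjusted p = 0.0461).

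Lss and Cyp51 changed their reading with control 2. Lss (ENSMUSG00000033105; GRCm38 chromosome 10, 76531588 to 76557138, plus strand), the lanosterol synthase, had 6.53, 15.6 and 9.76 CPM in controls 1, 2 and 3 and 12.1, 15.5 and 15.2 CPM in knockouts. Controls 1 and 3 lay below the knockouts and control 2 was as high as the highest knockout. The log2 fold change was 0.42 (SE 0.32, edgeR BH-adjusted p = 0.382) with all libraries and 0.78 (SE 0.19, edgeR BH-adjusted p = 0.0148) without control 2. Cyp51, the demethylase that acts on lanosterol, had 12.3, 36.8 and 14.7 CPM in controls and 20.7, 19.6 and 16.3 CPM in knockouts. Here control 2 was the highest library, and the direction turned, from a log2 fold change of -0.17 (edgeR BH-adjusted p = 0.799) with all libraries to 0.45 (edgeR BH-adjusted p = 0.0316) without control 2.

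The remaining 8 enzymes of this arm passed the test in neither fit. Hsd17b7, a sterol ketoreductase, had 11.6, 31.3 and 14.8 CPM in controls and 13.3, 10.2 and 9.36 CPM in knockouts. Control 2 stood far above the rest, and the log2 fold change went from -0.81 (95% interval -1.79 to 0.17) with all libraries to -0.30 (-0.73 to 0.12) without it. The squalene synthase Fdft1 and the squalene epoxidase Sqle had log2 fold changes of -0.08 and -0.24. The methylsterol oxidase Msmo1, the sterol dehydrogenase Nsdhl, the sterol isomerase Ebp and the sterol desaturase Sc5d lay at 0.06, -0.27, -0.04 and 0.11. Tm7sf2, a sterol reductase, lay at -0.36 with 2.62 to 4.52 CPM. Msmo1 gives the narrowest bound of these, with a 95% interval of -0.17 to 0.29. Fdft1 shares 26.5% of its 50-base sequences with other genes, chiefly Ctsb, and Tm7sf2 shares 9.87%, with Vps51.

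Among the 5 SREBP regulators, Insig2 rose with all libraries and the 2 SREBP genes did not pass the test. Srebf1 had 104, 105 and 109 CPM in controls and 107, 101 and 107 CPM in knockouts. These values interleave, with a log2 fold change of -0.02 and a 95% interval of -0.15 to 0.11. Srebf2 had 68.7, 89.7 and 76.4 CPM in controls and 93.3, 95.3 and 93.5 CPM in knockouts. Each knockout lay above each control, with control 2 closest to them (log2 fold change 0.26, edgeR BH-adjusted p = 0.117 with all libraries; 0.34, edgeR BH-adjusted p = 0.00205 without control 2). Scap, the sterol sensor, had 71.6, 102.6 and 71.6 CPM in controls and 82.2, 97.2 and 93.8 CPM in knockouts. Control 2 was its highest library, and the log2 fold change was 0.15 (edgeR BH-adjusted p = 0.536) with all libraries and 0.31 (edgeR BH-adjusted p = 0.0125) without control 2.

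The INSIG genes, whose products hold Scap in the endoplasmic reticulum, went in opposite directions without control 2. Insig2 (ENSMUSG00000003721; GRCm38 chromosome 1, 121304353 to 121332589, minus strand) had 37.4, 38.3 and 40.3 CPM in controls and 51.1, 45.8 and 48.2 CPM in knockouts. The groups did not overlap and control 2 lay among the controls. Its log2 fold change was 0.32 (SE 0.07, 95% interval 0.15 to 0.50, edgeR BH-adjusted p = 0.0263) with all libraries and 0.28 (SE 0.07, edgeR BH-adjusted p = 0.0160) without control 2. The call was lost without control 1, control 3 or any 1 of the knockouts (edgeR BH-adjusted p up to 0.107). Insig1 (ENSMUSG00000045294; GRCm38 chromosome 5, 28071363 to 28078662, plus strand), itself a target of SREBP, had 38.5, 20.9 and 42.7 CPM in controls and 27.9, 25.9 and 25.2 CPM in knockouts. Controls 1 and 3 lay above all knockouts and control 2 below them. The log2 fold change was -0.37 (SE 0.27, edgeR BH-adjusted p = 0.354) with all libraries and -0.66 (SE 0.08, edgeR BH-adjusted p = 6.165e-04) without control 2. Per kilobase of exon, the ratio of Insig1 to Insig2 was 1.16, 0.611 and 1.19 in controls 1, 2 and 3 and 0.612, 0.636 and 0.588 in knockouts. Insig1 was thus the more abundant of the pair in controls 1 and 3 only, and control 2 sat among the knockouts in this ratio.

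Of the 3 sterol transport genes, none passed the test with all libraries in edgeR or limma voom, whereas DESeq2 called Stard4 as lower. At an unadjusted p under 0.05 there was 1 in edgeR, beside 5425 of the 13901 genes tested. Stard4 (ENSMUSG00000024378), a cytosolic sterol carrier and an SREBP target, had 36.2, 20.4 and 39.4 CPM in controls 1, 2 and 3 and 18.3, 22.4 and 18.7 CPM in knockouts. Control 2 fell among the knockouts while the other controls lay well above them. Its log2 fold change was -0.69 (SE 0.26, edgeR BH-adjusted p = 0.107) with all libraries and -0.97 (SE 0.11, edgeR BH-adjusted p = 3.400e-04) without control 2. Npc1 and Npc2, which carry cholesterol out of the lysosome, moved the other way without control 2. Npc1 had 54.8, 74.1 and 57.2 CPM in controls and 76.0, 64.8 and 68.2 CPM in knockouts, and Npc2 had 206, 303 and 223 CPM in controls and 294, 285 and 278.5 CPM in knockouts. In both genes controls 1 and 3 lay below all knockouts, and control 2 lay within or above the knockouts. Their log2 fold changes were 0.17 and 0.23 with all libraries (edgeR BH-adjusted p = 0.412 and 0.319) and 0.28 and 0.38 without control 2 (edgeR BH-adjusted p = 0.0211 and 0.00138).

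The 5 genes of fatty acid synthesis all had negative log2 fold changes in both fits, with a median of -0.36 with all libraries and -0.21 without control 2. Of all genes tested, 6997 of 13901 had positive values with all libraries and 7046 of 14178 without control 2. Of the 5 genes, Acaca was the one that passed the test with all libraries in edgeR. DESeq2 called both Acaca and Fasn as lower, and limma voom called neither. Acaca (ENSMUSG00000020532; GRCm38 chromosome 11, 84129672 to 84401651, plus strand), which makes malonyl-CoA, had 22.3, 21.4 and 25.2 CPM in controls and 18.7, 17.9 and 18.7 CPM in knockouts. The groups did not overlap. Its log2 fold change was -0.32 (SE 0.09, 95% interval -0.54 to -0.10, edgeR BH-adjusted p = 0.0490) with all libraries and -0.40 (SE 0.09, edgeR BH-adjusted p = 0.0106) without control 2. The call was lost without control 1, control 3 or any 1 of the knockouts (edgeR BH-adjusted p up to 0.161), with upper-quartile scaling (0.0509) or library size only (0.101) and in limma voom (0.0513). Of its 50-base sequences 30.4% occur in transcripts of other genes, spread over 335 genes.

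Fasn, the fatty acid synthase, had 221, 212 and 277 CPM in controls and 189.7, 177 and 186 CPM in knockouts. Every knockout lay below every control, and control 3 was the highest library. The log2 fold change was -0.36 (95% interval -0.65 to -0.08, edgeR BH-adjusted p = 0.0724) with all libraries and -0.47 (edgeR BH-adjusted p = 0.00568) without control 2. Acly, the citrate lyase that supplies acetyl-CoA, had 203, 187 and 226 CPM in controls and 188, 193 and 187 CPM in knockouts, with control 2 among the knockouts (log2 fold change -0.12, edgeR BH-adjusted p = 0.354; without control 2 -0.21, edgeR BH-adjusted p = 0.0198). The stearoyl-CoA desaturases, which put the double bond into saturated fatty acids, followed control 2. Scd1 had 5.48, 48.9 and 10.5 CPM in controls and 12.6, 5.02 and 4.01 CPM in knockouts, and Scd2 had 78.5, 221 and 103 CPM in controls and 112, 88.1 and 75.9 CPM in knockouts. Control 2 was the highest library for both, and knockout 1 was the highest of the knockouts. Their log2 fold changes of -1.58 (95% interval -3.84 to 0.68) and -0.54 (-1.55 to 0.46) became -0.17 (-1.38 to 1.04) and -0.01 (-0.43 to 0.40) without control 2. For Scd1 even the interval without control 2 spans more than a 2-fold change in either direction, so a difference of that size was not detectable.

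Between genes, levels per kilobase of exon ranged over more than 100-fold. In the control mean, Npc2 led with 44.9 CPM per kilobase, followed by Acly (38.9), Scd2 (24.6), Fasn (21.6) and Srebf1 (18.9). Scap, Srebf2 and both INSIG genes then lay together at 10.9 to 11.1, closer to each other than the spread between their libraries. The sterol enzymes lay lower, from Hmgcs1 at 7.67 and Ebp at 7.21 down to Lss at 0.986, Tm7sf2 at 0.883, Idi1 at 0.606 and Fdps at 0.266. In the knockout mean Npc2 (52.6) and Acly (35.9) again led. Acat2 had 2.85 CPM per kilobase in the control mean, rank 26 of 31, and 6.15 in the knockout mean, rank 13. The ratio of Srebf1 to Srebf2 per kilobase was 1.94, 1.496 and 1.82 in controls 1, 2 and 3 and 1.46, 1.35 and 1.46 in knockouts. The knockouts lay below all controls in this ratio, with control 2 close to them. The ratio of Scd2 to Scd1 was 12.8, 4.04 and 8.84 in controls and 7.97, 15.7 and 16.9 in knockouts, with overlap.

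Control 2 was the highest of the 6 libraries in 13 of the 31 genes (41.9%), against 23.6% of all genes tested, and the lowest in 2 (6.45%), against 23.0%. Relative to the mean of controls 1 and 3 its median log2 difference was 0.20 over the 31 genes, against -0.02 over all genes. The differences above 1 were in Scd1 (2.61), Cyp51 (1.44), Scd2 (1.28), Hsd17b7 (1.24) and Acat2 (1.07), and those below -0.5 were in Insig1 (-0.96) and Stard4 (-0.89). Of the 14 genes called without control 2, control 2 lay on the knockouts' side of controls 1 and 3 in 13 (92.9%), Insig2 being the exception. Over all genes called in that fit the share was 74.3% (5294 of 7128). Control 2 had the lowest endothelial and the highest fibroblast and pericyte marker sums of the controls, and was the only female one. The knockouts also had lower endothelial sums than controls 1 and 3. Their fibroblast sum was higher with Dcn and overlapped that of controls 1 and 3 without it. Within that list, Mmp2 had 560, 491 and 548.5 CPM in the knockouts, against 138 and 149 in controls 1 and 3. Pdgfra, Fbln1 and Lum were also higher in every knockout than in controls 1 and 3, whereas Col1a1, Col1a2, Col3a1, Postn and Dpt overlapped. Col1a1 had 235, 104 and 110.4 CPM in the knockouts, against 214 and 628 in controls 1 and 3. The pericyte and smooth muscle sum was 770 to 1564 CPM in the knockouts, above the 470 and 581 of controls 1 and 3. Most of it was Acta2, at 652, 1131 and 522 CPM in the knockouts, against 379 and 462 in controls 1 and 3. Pdgfrb, Cnn1, Kcnj8 and Tagln were also higher in every knockout than in controls 1 and 3. Abcc9 was lower, and Rgs5, Cspg4, Myh11 and Des overlapped. The part of cell composition and of sex in these 13 genes was not tested.

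Lipid genes outside the set were then counted from lists chosen by role. Of 73 genes 72 were in the table and tested, and 19 were called with all libraries (26.4%, against the 24.7% of all genes), 11 higher and 8 lower. Without control 2 the calls numbered 42 (58.3%, against 50.3% of all genes), 21 in each direction (25.5% of all genes were higher and 24.8% lower), and all 19 were among them. The lists below are read against 13.1% of all genes higher and 11.7% lower with all libraries. Counts at an unadjusted p under 0.05 are read against 5425 of 13901 genes with all libraries and 8029 of 14178 without control 2. Among the 9 tested genes of SREBP cleavage and sterol-regulated degradation, 1 was higher and 1 lower with all libraries, and 2 and 3 without control 2. Mbtps1, the protease that makes the first cut in SREBP, had 187, 219.7 and 196 CPM in controls and 243, 259 and 239 CPM in knockouts (log2 fold change 0.30, edgeR BH-adjusted p = 0.0478). Rnf145, a sterol-responsive ubiquitin ligase, had 145, 129.8 and 152 CPM in controls and 112, 109 and 108 CPM in knockouts (log2 fold change -0.38, edgeR BH-adjusted p = 0.0171). Neither gene's groups overlapped, and both lost the call without any 1 library other than control 2 (edgeR BH-adjusted p up to 0.152 and 0.0798).

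In the list of sterol export, storage and oxysterol response, 5 of 15 genes were higher and 1 lower, and 9 and 4 without control 2. The lower gene was Abcg1, a sterol exporter and a target of the oxysterol receptors LXR, which had 92.8, 46.1 and 109 CPM in controls and 11.2, 10.3 and 16.2 CPM in knockouts. All knockouts lay far below the controls, of which control 2 was the lowest (log2 fold change -2.72, SE 0.38, edgeR BH-adjusted p = 0.00666), and the call held whichever library was left out. Nr1h3, which encodes LXR alpha, had 3.06, 6.42 and 3.12 CPM in controls and 11.6, 11.5 and 12.4 CPM in knockouts (log2 fold change 1.49, SE 0.32, edgeR BH-adjusted p = 0.0237). Mylip, an LXR target whose product degrades lipoprotein receptors, had 3.11, 5.39 and 3.67 CPM in controls and 10.7, 10.3 and 9.08 CPM in knockouts (log2 fold change 1.31, SE 0.23, edgeR BH-adjusted p = 0.0136). The LXR targets Abcg1 and Mylip thus went in opposite directions, each with no overlap between the groups. Abca1 of the same list had 132, 82.1 and 122 CPM in controls and 138, 147 and 152 CPM in knockouts. Its groups did not overlap either, but it was not called (log2 fold change 0.38, edgeR BH-adjusted p = 0.181). Nr1h2 (LXR beta) and the lysosomal acid lipase Lipa were also among the higher genes (log2 fold changes 0.34 and 0.35). Nr1h3 lost its call without any 1 library other than control 2, and Mylip without control 3 or knockout 1 or 2 (edgeR BH-adjusted p as high as 0.0831 and 0.0616).

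Of the 12 genes of the isoprenoid branches, 3 were lower and none higher in edgeR, DESeq2 or limma voom, with 4 at an unadjusted p under 0.05 in edgeR. Without control 2 the counts were again 3 lower and 0 higher in edgeR, with 6 at an unadjusted p under 0.05. Nus1, a subunit of the enzyme that makes dolichol chains, had 376, 303 and 387 CPM in controls and 193, 192 and 189.8 CPM in knockouts. All knockouts lay below all controls (log2 fold change -0.89, SE 0.11, edgeR BH-adjusted p = 0.00463), and the call held whichever library was left out. Icmt, which methylates prenylated proteins, had 212, 143 and 221 CPM in controls and 118, 118 and 117 CPM in knockouts (log2 fold change -0.70, edgeR BH-adjusted p = 0.0326). Fntb, the beta subunit of protein farnesyltransferase, fell by 0.27 on the log2 scale, at the threshold (edgeR BH-adjusted p = 0.04999). Both lost the call without any 1 library other than control 2 (edgeR BH-adjusted p up to 0.116 and 0.165). The summed level of the 12 genes was 762 to 937 CPM in controls and 629 to 656 CPM in knockouts, while the summed level of the 7 mevalonate enzymes that feed them was 70.7 to 95.02 CPM in controls and 78.1 to 88.0 CPM in knockouts. The first sums did not overlap between the groups, and their difference lay mostly in Nus1 and Icmt. The second overlapped only through control 2, since controls 1 and 3 had 70.7 and 71.3 CPM, below all knockouts. Within the second sum, Acat2 had 5.01 and 5.59 CPM in controls 1 and 3 and 14.5 to 16.4 in knockouts. Mvk was also higher in every knockout than in controls 1 and 3. Idi1 was lower, and Hmgcs1, Pmvk, Mvd and Fdps overlapped, so the 7 enzymes did not rise together.

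Fatty acid activation, elongation and desaturation had 2 of 19 genes higher and none lower in edgeR and limma voom, with 6 at an unadjusted p under 0.05 in edgeR, whereas DESeq2 called 3 lower (Fads1, Fads2 and Me1). Without control 2 edgeR called 6 higher and 6 lower. Hacd3, a dehydratase of fatty acid elongation, had 70.9, 74.9 and 71.4 CPM in controls and 106, 108 and 102 CPM in knockouts (log2 fold change 0.54, SE 0.05, edgeR BH-adjusted p = 0.00277). Fads3, a desaturase family member, had 140.2, 180.2 and 148 CPM in controls and 209, 209 and 209.7 CPM in knockouts (log2 fold change 0.42, edgeR BH-adjusted p = 0.0355). The groups did not overlap in either gene. The call of Hacd3 held whichever library was left out, and that of Fads3 was lost without any 1 library other than control 2 (edgeR BH-adjusted p up to 0.113).

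In glycerolipid assembly and storage, 3 of 17 genes were higher and 3 lower, and 4 and 5 without control 2. Plin2, which coats lipid droplets, had 229.7, 202 and 226 CPM in controls and 635, 636 and 572 CPM in knockouts. The knockouts were close to each other and far above the controls (log2 fold change 1.49, SE 0.09, edgeR BH-adjusted p = 9.906e-04), and control 2 was the lowest control. Agpat2, an acyltransferase that makes phosphatidic acid, had 6.32, 14.97 and 8.50 CPM in controls and 28.2, 30.4 and 25.7 CPM in knockouts (95% interval of the log2 fold change 0.71 to 2.29, edgeR BH-adjusted p = 0.0237). Its relative Agpat1 went the other way, with a log2 fold change of -0.35 (edgeR BH-adjusted p = 0.00964). The phosphatidate phosphatases split as well. Lpin3 had 133, 57.9 and 151 CPM in controls and 12.3, 14.7 and 19.9 CPM in knockouts (log2 fold change -2.86, SE 0.41, edgeR BH-adjusted p = 0.00735), and Lpin2 had 45.8, 45.8 and 46.3 CPM in controls and 57.4, 62.0 and 60.2 CPM in knockouts (log2 fold change 0.38, edgeR BH-adjusted p = 0.00886). Pcyt1a, which controls phosphatidylcholine synthesis, fell by 0.38 on the log2 scale (edgeR BH-adjusted p = 0.00916). Plin2, Lpin2 and Lpin3 kept the call whichever library was left out. Agpat2 lost it without control 3 or any 1 knockout, Agpat1 without knockout 2 or 3 and Pcyt1a without knockout 1 (edgeR BH-adjusted p up to 0.0896, 0.0560 and 0.0527).

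**Figure D4:**
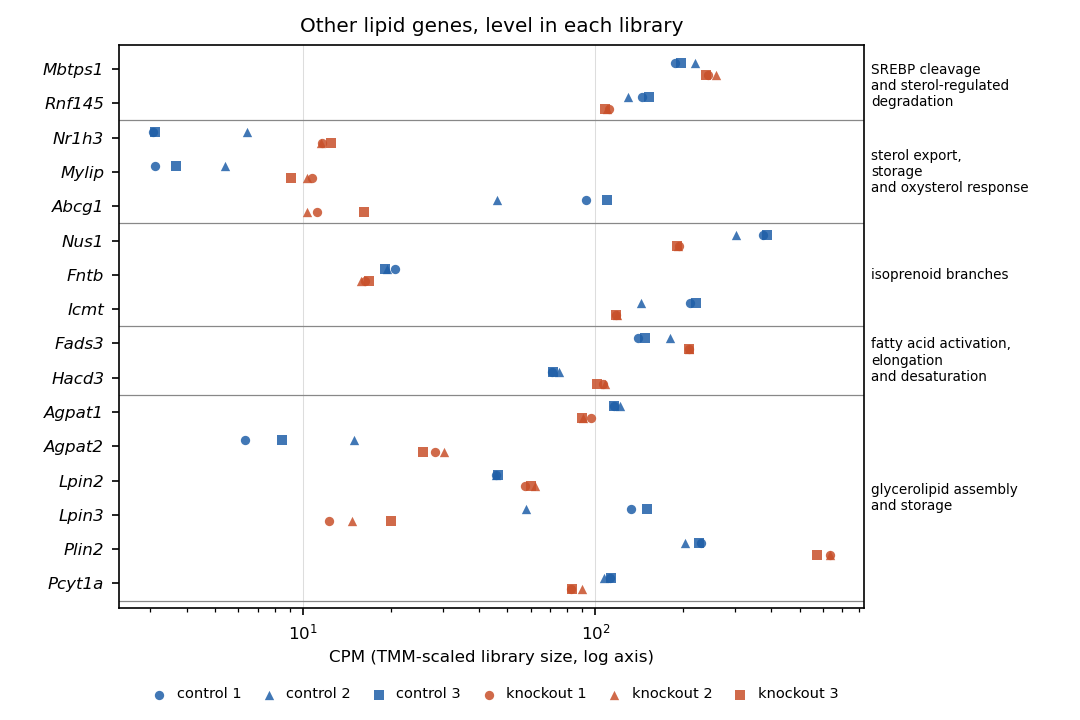
CPM (log axis) of the other lipid genes described by name from the rule, in controls 1 to 3 (blue) and knockouts 1 to 3 (red), grouped by role. Plin2 lies between 572 and 636 CPM in knockouts and 202 and 229.7 CPM in controls, and Abcg1 and Lpin3 lie lower in every knockout than in every control.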

How the data were processed

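RNA-seq was analysed from the table of raw counts that the authors deposited, with whole-number counts for 52636 Ensembl genes in 3 control and 3 knockout libraries, grouped by their titles. The labels' protocols name 2 Illumina kits, TruSeq RNA v2 and TruSeq Stranded mRNA, but not which library had which. Per the submitters' processing notes, FastQC 0.11.5, STAR 2.7.6a and GRCm38 were used. How reads were counted (program, strand, annotation) is not given in the sources used here, so genes that overlap or share sequence with others are uncertain, as stated beside them.

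Symbols, positions and exon lengths came from GENCODE M21 (GRCm38). In R 4.3.3, edgeR 4.0.16 was used with filterByExpr by group, TMM scaling and two-sided quasi-likelihood F tests without covariates, with Benjamini-Hochberg (BH) adjustment over all genes tested. Calls needed an adjusted p below 0.05. Each standard error was the log2 fold change divided by the square root of F. Each library was kept as a separate replicate, since no pair agreed within sampling noise. DESeq2 1.42.0 and limma 3.58.1 (voom), 3 other scalings, other filters and thresholds, a replicate block, a sex term (from Xist and Y-linked genes) and leaving out each library were alternatives.

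The genes and lists were chosen with earlier results of these data known. Full statistics were given for the genes of the set called with all libraries, or called without control 2 with a log2 fold change of at least 0.58 in size. From each list of other lipid genes, the 3 largest changes in each direction were named if called and at 5 CPM or more on average, and from each marker list the most abundant gene. The markers at 0, Abca1, Nr1h2, Lipa, Fads1, Fads2, Me1 and each fibroblast marker except Col1a1 were named after their values were seen. A result that the rule selects is not reported here.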

Additional observations from a re-analysis of the deposited data

How the results depend on the processing

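Of the 31 genes, 1 was higher and 2 were lower with all 6 libraries. Library size only gave 2 higher and 1 lower, DESeq2 2 and 4, limma voom 2 and 1, upper-quartile scaling 1 lower and the sex term 1 lower. No low-count filter gave 0 higher and 1 lower, an adjusted p under 0.01 gave 0 and 1, and the test against a 1.5-fold change gave 0 and 0. Beside these counts of 0, edgeR had 7 of 31 genes at an unadjusted p under 0.05, and 5425 of the 13901 genes tested. Leaving out 1 library gave 0 to 8 higher and 1 to 6 lower, both maxima without control 2. Of the other lipid genes, 11 were higher and 8 lower. DESeq2 gave 13 lower, the 1.5-fold test 1 higher and 2 lower, an adjusted p under 0.01 3 and 5, and leaving out 1 library 3 to 21 higher and 4 to 21 lower, both maxima again without control 2. The cause of these shifts was not tested. The share of all genes called is given only for the edgeR fits with all libraries and without control 2. The counts under the other settings therefore have no such share beside them and cannot be read as high or low.

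With the replicate number as a block (replicate block), 0 of the 31 genes were higher and 1 lower, and 5 and 4 of the other lipid genes. Deviations of same-numbered libraries from their group means correlated at -0.174, 0.161 and 0.254, so the numbers were not taken to pair the libraries, and not every library correlated best with its own number.

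Over the 7 genes with full statistics and 105 alternative values, the direction was kept in all, 79 kept their side of the threshold, 8 gained a call and 18 lost one. Dhcr7 kept its call under each of these, but not in the test against a 1.5-fold change. Acaca also lost its call with no low-count filter (edgeR BH-adjusted p = 0.14), the replicate block (0.111) and the sex term (0.0984), and Insig2 with no low-count filter (0.0526) and the replicate block (0.0889). Scaling moved the median of all genes by at most 0.09 on the log2 scale. Fdps, with no more than 1.47 CPM in any library, had a 95% interval of -2.19 to 0.13 on the log2 scale.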
